A study of Mus musculus with 25 samples.

Results

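AA545190, A730082K24Rik and C86187 are 3 mouse long noncoding RNAs that were abundant in metaphase II (MII) oocytes or 2-cell embryos and nearly absent from morulae. They were chosen by name for that pattern, from 4227 long noncoding RNAs among the 23825 genes listed in both deposited tables. Their levels across stages chose them, so those levels are given as a description and carry no test. The description as maternal RNAs lost by the morula held in both steps for C86187. AA545190 and A730082K24Rik were present in oocytes but had their highest levels at the 2-cell stage.

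The 25 libraries were made by Smart-seq2, which amplifies full-length cDNA primed on the poly(A) tail, from C57BL/6 oocytes and embryos. Immature oocytes were cultured for 16 h to MII, the stage at which the oocyte awaits the sperm, and embryos came from fertilization in vitro over 6 h, with 2-cell embryos scored 24 h later. The culture medium held a small molecule written as VCD, or PBS, the buffered saline of the controls. There were 5 VCD MII and 4 PBS MII libraries, 4 VCD 2-cell and 4 PBS 2-cell libraries, and 4 VCD morula and 4 PBS morula libraries. The full name and dose of VCD, the number of oocytes or embryos per library and whether libraries came from separate animals are not stated in the labels. The p-values therefore measure only the spread between these samples, which may be technical.

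Levels are FPKM, fragment counts scaled to transcript length and library size. Worked out from the values, the depth of a library was 15075832 to 20998296 reads or fragments. FPKM is a share of the library, so more of 1 RNA and less of the other RNA cannot be told apart, nor can fewer cells and less RNA per cell. As a check of the labels, 24 of 24 maternal coding genes were at 5 FPKM or more in PBS MII oocytes, against 1 of 12 cumulus and granulosa cell markers, Cyp19a1. The summed level of those 12 markers lay between 7.61 and 10.6 FPKM in VCD MII libraries and between 9.09 and 11.9 FPKM in PBS MII libraries.

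A fully grown mouse oocyte is transcriptionally silent and lives on RNA stored during its growth. Much of that RNA is degraded during maturation and around the 2-cell stage, when transcription from the embryonic genome begins on a broad scale. BTG4, with the CCR4-NOT deadenylase, shortens poly(A) tails of maternal RNAs in this period. C86187 is also called Sirena1 in RefSeq, and is known in mouse oocytes as a source of endogenous small interfering RNAs. AA545190 and A730082K24Rik carry no stated function in the reference tables used.

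AA545190 (ENSMUSG00000107948) lies on chromosome 6 from 10971560 to 10979638 on the minus strand, in GRCm38 coordinates of the GENCODE M21 annotation. Its 3 annotated transcripts are 445 to 1053 bases long, and its exons cover 1170 bases. A730082K24Rik (ENSMUSG00000108379) lies on chromosome 7 from 114948650 to 114983960 on the plus strand, with 5 transcripts of 465 to 1808 bases and 2400 exon bases. C86187 (ENSMUSG00000110001) lies on chromosome 7 from 46967711 to 46975911 on the minus strand, with 4 transcripts of 790 to 2415 bases and 2415 exon bases. All 3 are classed as lincRNA and are spliced. AA545190 and A730082K24Rik overlap no other annotated gene.

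**Figure D1:**
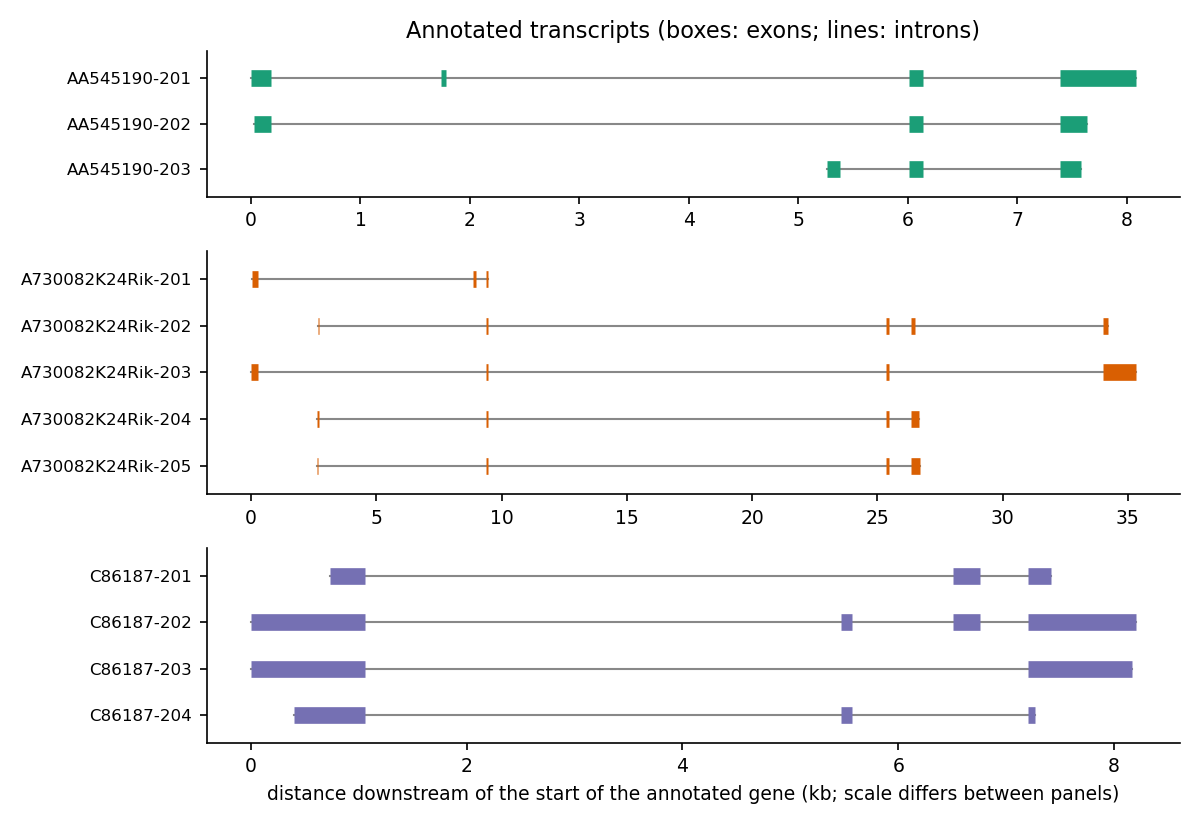
Annotated transcripts of AA545190, A730082K24Rik and C86187, with boxes for exons, lines for introns and distance from the start of the gene in kb on the x axis. A730082K24Rik spans 35311 bases, and its exons cover 6.80% of them, against 14.5% of 8079 bases for AA545190 and 29.4% of 8201 bases for C86187.

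The promoter windows of RefSeq (GRCm38.p6), 300 bases that end 50 bases past the start, are shown because all 3 RNAs were near 0 in morulae. Capitals mark CCAAT on either strand, read as ATTGG on the other, in the first pair, and TATAAA in C86187. The windows are chr6:10974329-10974628 (minus strand), chr7:114948400-114948699 (plus strand) and chr7:46975862-46976161 (minus strand).
AA545190: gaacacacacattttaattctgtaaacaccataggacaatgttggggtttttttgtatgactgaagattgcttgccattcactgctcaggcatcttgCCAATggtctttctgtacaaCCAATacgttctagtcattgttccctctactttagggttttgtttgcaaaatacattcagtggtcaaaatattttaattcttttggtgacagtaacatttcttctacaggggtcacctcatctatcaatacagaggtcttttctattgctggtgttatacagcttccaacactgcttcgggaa
A730082K24Rik: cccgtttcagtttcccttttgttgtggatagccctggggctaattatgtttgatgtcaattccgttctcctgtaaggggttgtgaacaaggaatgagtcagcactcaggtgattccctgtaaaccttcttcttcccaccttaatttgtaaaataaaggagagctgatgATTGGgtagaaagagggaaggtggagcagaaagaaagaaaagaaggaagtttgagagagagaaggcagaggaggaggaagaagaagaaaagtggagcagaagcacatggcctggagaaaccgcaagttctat
C86187: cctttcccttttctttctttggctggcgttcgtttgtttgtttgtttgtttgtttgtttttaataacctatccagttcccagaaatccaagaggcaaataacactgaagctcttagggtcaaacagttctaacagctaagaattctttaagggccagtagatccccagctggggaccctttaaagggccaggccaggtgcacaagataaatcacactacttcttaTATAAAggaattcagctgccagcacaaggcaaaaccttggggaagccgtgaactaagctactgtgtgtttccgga

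The C86187 window held TATAAA beginning 25 bases before the start. Of 32851 mouse promoter windows of the same length, 13.6% held TATAAA on either strand, and 2.08% held it on the sense strand beginning 40 to 16 bases before the start. CCAAT occurred at 2 places in AA545190 and at 1 in A730082K24Rik, and in 37.4% of all windows. CANNTG occurred at 2 places in A730082K24Rik, at 3 in C86187 and at none in AA545190, and in 72.3% of all windows. Neither GGGCGG (35.7% of windows) nor TAATCC (7.06%) occurred in any of the 3, both strands being searched for every motif, and no match overlapped another. The motifs and the window for TATAAA were chosen after these sequences had been read. The windows held 2, 3 and 4 CG dinucleotides in AA545190, A730082K24Rik and C86187, against a median of 7 over all windows (quartiles 3 and 20). The AA545190 window belongs to its shortest transcript, which starts 5260 bases inside the gene, so the start of the longest transcript is not covered.

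C86187 was the most abundant of the 3 in every oocyte and 2-cell library. It had 716, 664, 826, 782 and 751 FPKM in VCD MII oocytes, against 778, 796, 749 and 836 FPKM in PBS MII oocytes. At the 2-cell stage it had 781, 687, 754 and 696 FPKM with VCD, against 667, 671, 727 and 553 FPKM with PBS. The oocyte and 2-cell ranges overlapped, and so did VCD and PBS within each stage. In morulae it was listed at 0.863, 0.410, 0.595 and 0.316 FPKM with VCD, against 0.454, 0.336, 0.461 and 0.0680 FPKM with PBS. These morula values came from 86 recovered reads over the 4 VCD libraries and 61 over the 4 PBS libraries. Single libraries held 12 to 36 reads with VCD and 3 to 23 with PBS.

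AA545190 was intermediate, and its 2-cell libraries all lay above its oocyte libraries. In MII oocytes it had 195, 234, 174, 189 and 241 FPKM with VCD, against 187, 209, 190 and 203 FPKM with PBS. At the 2-cell stage the values were 547, 470, 486 and 586 FPKM with VCD and 628, 598, 584 and 550 FPKM with PBS. Of the 4 VCD 2-cell libraries, 3 lay below all PBS ones, and the other lay inside their range. In morulae it was listed at 0 in 2 of 4 VCD libraries and at 0.544 and 1.34 FPKM in replicates 1 and 3. It was at 0 in 1 of 4 PBS libraries and at 0.198, 0.0453 and 0.0936 FPKM in the others. Replicate 3 of the VCD morulae held 24 of the 35 recovered reads of that group, and the PBS group held 7.

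A730082K24Rik was the least abundant in oocytes and showed the widest separation between oocytes and 2-cell embryos. It had 28.3, 21.1, 26.9, 19.5 and 22.2 FPKM in VCD MII oocytes, against 22.2, 23.3, 22.3 and 21.5 FPKM in PBS MII oocytes. In 2-cell embryos it had 353, 451, 452 and 307 FPKM with VCD, against 406, 384, 343 and 486 FPKM with PBS. Every 2-cell library was thus above 300 FPKM and every oocyte library below 30 FPKM. In morulae it was listed at 0.0483, 0, 0.0545 and 0.0530 FPKM with VCD, against 0, 0.0242, 0.0662 and 0 FPKM with PBS. No morula library held more than 3 recovered reads of it, and the groups summed to 6 and 4 reads in VCD and PBS.

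**Figure D2:**
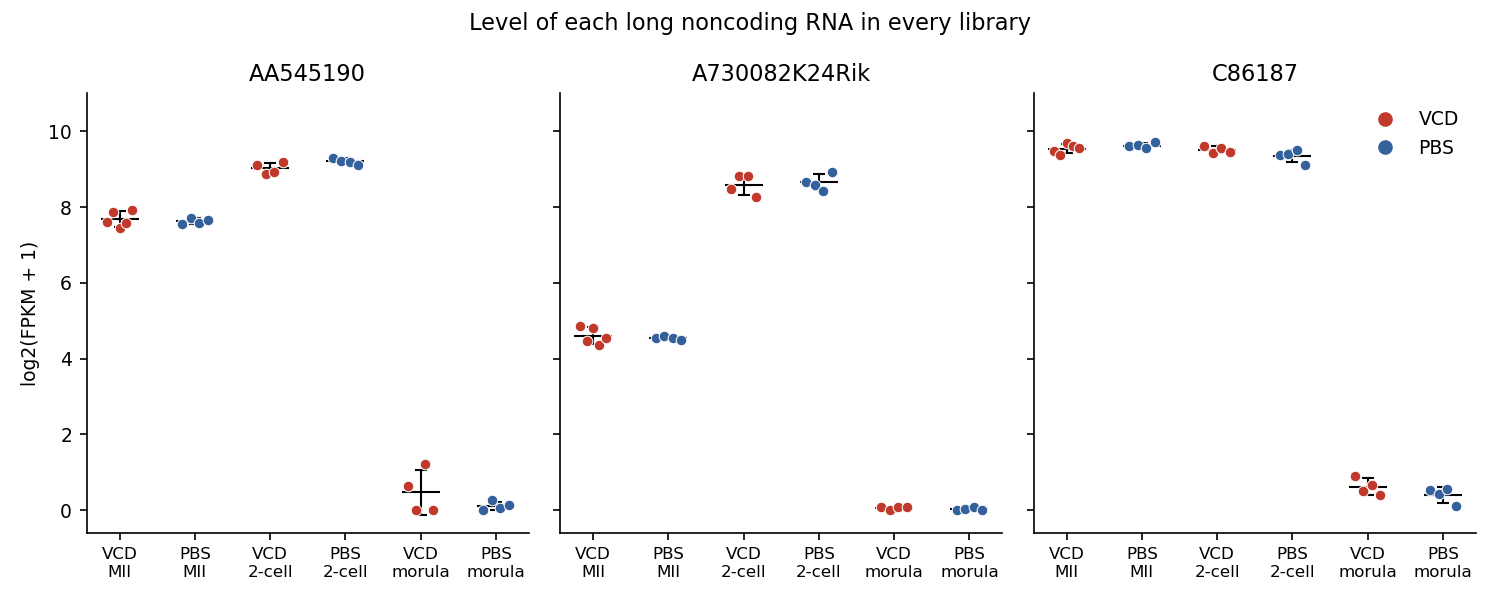
Level of each RNA in every library as log2(FPKM + 1), with points for libraries, horizontal marks for group means and bars for the SD. C86187 stayed between 553 and 836 FPKM over oocytes and 2-cell embryos, A730082K24Rik stood at 19.5 to 28.3 FPKM in oocytes and 307 to 486 FPKM in 2-cell embryos, and all 3 lay near 0 in morulae of both agents.

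The order C86187, AA545190, A730082K24Rik, from high to low FPKM, held in 9 of 9 oocyte libraries and in 8 of 8 2-cell libraries. In oocytes C86187 was 2.84 to 4.75 times as high as AA545190 in the same library, and AA545190 was 6.47 to 11.1 times as high as A730082K24Rik. At the 2-cell stage these ratios were 1.005 to 1.55 and 1.04 to 1.90. The spread within groups was unequal. In MII oocytes the coefficient of variation of AA545190, A730082K24Rik and C86187 was 14.1%, 16.1% and 8.26% over 5 VCD libraries, against 5.34%, 3.38% and 4.63% over 4 PBS libraries. At the 2-cell stage it was 10.3%, 18.5% and 6.25% with VCD, against 5.44%, 14.9% and 11.1% with PBS. The difference in spread was not tested.

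From oocyte to 2-cell embryo the 3 RNAs took different courses. Oocytes and embryos come from separate tables, so these ratios are levels set across tables. They are also ratios of RNA captured by its poly(A) tail, and tail length was not measured. A730082K24Rik was 16.6 times as high in VCD 2-cell embryos as in VCD oocytes, and 18.1 times as high in the PBS pair. AA545190 was 2.53 times as high with VCD and 2.99 times as high with PBS. C86187 stood at 97.5% of its oocyte level with VCD and at 82.9% with PBS. Among genes at 5 FPKM or more in oocytes, 17% of 4645 with VCD and 17.8% of 4580 with PBS were at least 2-fold higher at the 2-cell stage, as were AA545190 and A730082K24Rik. A 10-fold higher level was found for 0.495% of those genes with VCD and 0.611% with PBS, A730082K24Rik included. The rule used these levels, so nothing is read from these shares. Among the 4580 genes at 5 FPKM or more in PBS oocytes, those with a larger ratio than A730082K24Rik numbered 3: Gm11543, Gm21818 and Gm44087, which were picked after their values were seen. Genes lower in oocytes, such as Zscan4d, had larger ratios.

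The scaling of the tables bears on these ratios. Over 13562 genes the median of PBS 2-cell embryos minus PBS oocytes was 0.41 on the log2(FPKM + 1) scale. With every library scaled to the same upper quartile, the PBS 2-cell level was 225% of the oocyte level for AA545190, 1366% for A730082K24Rik and 62.2% for C86187. The directions were the same as without that scaling.

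**Figure D3:**
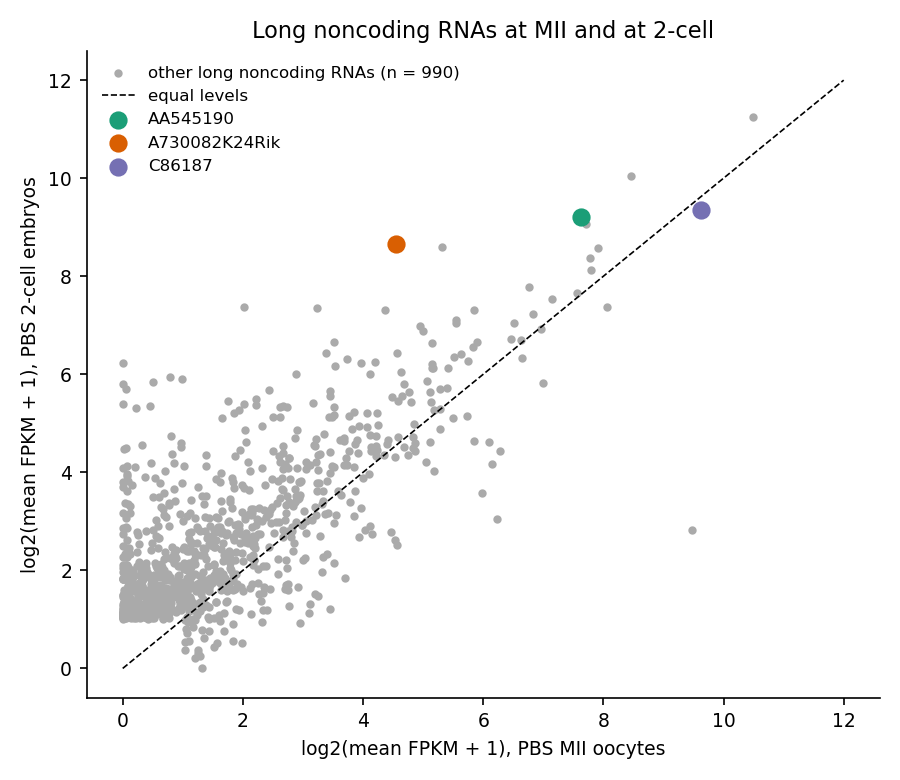
Mean level of long noncoding RNAs in PBS MII oocytes (x axis) and PBS 2-cell embryos (y axis), both as log2(mean FPKM + 1), with grey points for 990 other RNAs at 1 FPKM or more in either group. AA545190 and A730082K24Rik lie above the dashed line of equal levels, and C86187, at 790 FPKM in oocytes and 654 FPKM in 2-cell embryos, lies just below it.

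In the step to the morula, the group means of all 3 RNAs were under 0.1% of their 2-cell level in both agents. AA545190 in morulae was at 0.0903% of its 2-cell level with VCD and at 0.0143% with PBS. A730082K24Rik was at 0.00996% with VCD and 0.00559% with PBS, and C86187 at 0.0749% with VCD and 0.0504% with PBS. Summed recovered reads gave exact Poisson 95% intervals for the share left in VCD morulae of 0.0623% to 0.124% for AA545190, 0.00360% to 0.0213% for A730082K24Rik and 0.0608% to 0.0939% for C86187. In PBS morulae they were 0.00541% to 0.0277% for AA545190, 0.00149% to 0.0140% for A730082K24Rik and 0.0392% to 0.0658% for C86187. The intervals cover counting error only. For AA545190 in VCD morulae the share was 0.0348% without replicate 3 and 0.120% without either of replicates 2 and 4, which were listed at 0. Among genes at 5 FPKM or more in 2-cell embryos of the same agent, some also had under 1% of that level left. They were 13.7% of 5863 genes in VCD morulae and 15.7% of 5825 genes in PBS morulae. The median over those 5825 genes in PBS was 37.5%. The rule used this step as well, so the position of the 3 RNAs is a description.

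Together, long noncoding RNAs held a smaller share of all FPKM in morulae than in oocytes or 2-cell embryos. Of 238 at 5 FPKM or more in PBS oocytes, 158 were under 1% of their 2-cell level in PBS morulae, and 75 were over 200% of their oocyte level at the 2-cell stage. That filter picks RNAs that were high early. Some others rose from PBS 2-cell embryos to PBS morulae, such as Norad from 2.07 to 15.8 FPKM and Malat1 from 2.18 to 8.13 FPKM. Long noncoding RNAs held 3.57% ± 0.113 of all FPKM in VCD oocytes (SD, n = 5) and 3.67% ± 0.0263 in PBS oocytes (n = 4). They held 5.60% ± 0.143 and 5.83% ± 0.0902 in VCD and PBS 2-cell embryos (n = 4 each), and 1.06% ± 0.0537 and 1.07% ± 0.0169 in VCD and PBS morulae (n = 4 each). AA545190, A730082K24Rik and C86187 together made up 9.12% ± 0.379 of that sum in VCD oocytes and 9.13% ± 0.343 in PBS oocytes. Their share was 8.50% ± 0.242 in VCD and 8.003% ± 0.0942 in PBS 2-cell embryos.

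C86187 ranked 2 among long noncoding RNAs in oocytes of both agents and 3 in 2-cell embryos. AA545190 ranked 9 in VCD and 10 in PBS oocytes and 4 in 2-cell embryos, and A730082K24Rik 68 in VCD and 75 in PBS oocytes and 6 in 2-cell embryos. The 5 highest in PBS oocytes were Gm1965, C86187, Gm1070, Gm839 and Gm47066. Gm1965 had 2118 FPKM in VCD and 2441 FPKM in PBS 2-cell embryos, and 1.44 and 1.70 FPKM in VCD and PBS morulae. Gm1070 took another course, with 724 FPKM in VCD and 707 FPKM in PBS oocytes, but 5.00 and 6.05 FPKM in VCD and PBS 2-cell embryos.

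**Figure D4:**
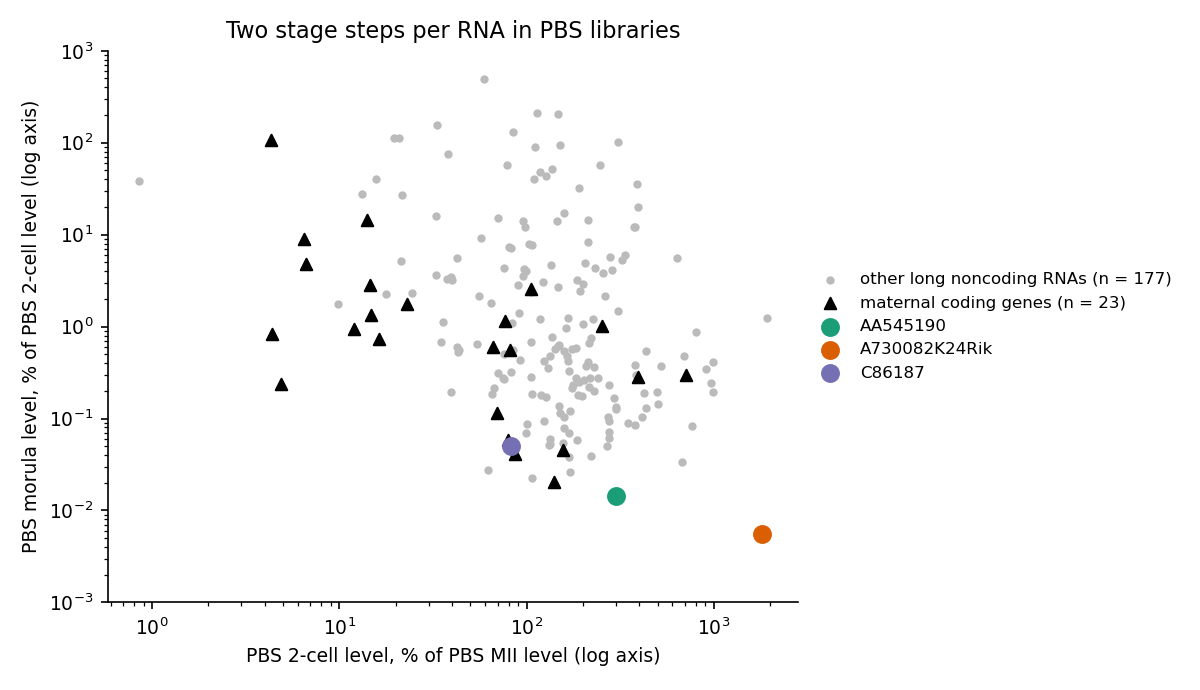
The PBS 2-cell level as a percentage of the PBS oocyte level (x axis, log) and the PBS morula level as a percentage of the PBS 2-cell level (y axis, log), for AA545190, A730082K24Rik, C86187, 177 other long noncoding RNAs and 23 maternal coding genes. Only long noncoding RNAs at 5 FPKM or more in PBS oocytes and above 0 in PBS morulae are drawn. A730082K24Rik, at 1813% and 0.00559%, lies at the lower right.

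C86187 carries a stretch that reads against Elob, which encodes a subunit of the elongin complex and of ubiquitin ligases. Bases 150 to 548 of the longest C86187 transcript align with the opposite strand of the Elob transcript over 399 bases at 83.96% identity. This stretch, chromosome 7 from 46975364 to 46975762, lies in the first exon and contains all 350 bases of Gm31941, a processed pseudogene annotated on the plus strand. Smart-seq2 does not mark strand, so reads of C86187 and Gm31941 could not be told apart there. Of the 50-base words of C86187 transcripts, 12.01% also occur in Gm31941, because the annotations overlap, and none in another gene. The longest exact match to Elob is 25 bases, in capitals, at bases 202 to 226 of the transcript, shown with 10 bases on each side from GENCODE M21.
C86187: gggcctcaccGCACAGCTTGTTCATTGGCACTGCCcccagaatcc

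Elob and its relative Elobl were looked up for this sequence, after the data were in view. Elob had 4.41 ± 2.36 FPKM in VCD oocytes (SD, n = 5) and 3.57 ± 0.382 in PBS oocytes (n = 4). In 2-cell embryos it had 13.1 ± 6.26 FPKM with VCD and 12.4 ± 2.42 with PBS, and in morulae 202 ± 59.99 with VCD and 180.0 ± 31.9 with PBS (n = 4 each). Elob was thus lower in oocytes and 2-cell embryos, in which C86187 was high, than in morulae, and Elobl took the opposite course. Elobl, whose transcript aligns antisense to C86187 over 281 bases at 75.8% identity, had 499 ± 308 FPKM in VCD oocytes and 458 ± 108 in PBS oocytes. It had 151 ± 90.2 FPKM in VCD and 150.2 ± 50.4 in PBS 2-cell embryos, and 47.3 ± 24.1 and 44.6 ± 23.7 FPKM in VCD and PBS morulae. With so few stages no relation between these levels was tested.

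The genes with the most similar course were found by the root mean square difference of log2(mean FPKM + 1) over the 6 groups, each profile set to 0 at PBS oocytes, among 8581 genes. For C86187 they were E330021D16Rik (0.25), Accsl (0.29), AU022751 (0.45), Bmp15 (0.45) and Btg4 (0.46). Bmp15, an oocyte growth factor, had 1562 FPKM in both VCD and PBS 2-cell embryos and 1.27 and 0.908 FPKM in VCD and PBS morulae. Btg4, the adaptor of the deadenylase, had 5268 and 5121 FPKM in VCD and PBS 2-cell embryos, and 4.43 and 5.97 FPKM in VCD and PBS morulae. For AA545190 they were Gm13023 (0.21), Gm839 (0.22), Defb8 (0.35), Tcl1b5 (0.37) and Gm13103 (0.42). For A730082K24Rik they were Gm47432 (0.47), Gm10436 (0.58), Gng3 (0.69), Gm13089 (0.71) and Oog1 (0.74). Gng3, a G protein gamma subunit, had 185 and 205 FPKM in VCD and PBS 2-cell embryos against 13.5 and 13.7 FPKM in VCD and PBS oocytes. The 3 RNAs were not among each other's nearest: AA545190 and C86187 differed by 1.43, AA545190 and A730082K24Rik by 2.21, and A730082K24Rik and C86187 by 3.64. For RNAs near 0 in morulae, the drop on this scale depends largely on the oocyte level, so these differences partly reflect abundance. In PBS morulae AA545190 and C86187 were at 0.0428% and 0.0417% of their PBS oocyte levels.

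Maternal coding genes were set beside the 3 RNAs in both steps. Of 24 such genes, 12 were under 50% of their PBS oocyte level at the PBS 2-cell stage and 12 at 50% or more, with a median of 44.6%. All 3 RNAs were above 50%, from which nothing is read because the rule used these levels. Most genes were above it too: over the 4580 genes at 5 FPKM or more in PBS oocytes the median was 93.2% and the lower quartile 48.1%. Of 238 long noncoding RNAs at that level, 33 were under 50%. Zbed3 had 14314 and 14901 FPKM in VCD and PBS 2-cell embryos, and 6.60 and 6.85 FPKM in VCD and PBS morulae. Bcl2l10, a relative of the BCL2 apoptosis regulator, had 9060 and 9403 FPKM in VCD and PBS 2-cell embryos, and 3.26 and 3.91 FPKM in VCD and PBS morulae. Of 23 maternal coding genes at 5 FPKM or more in PBS 2-cell embryos, 13 were under 1% in PBS morulae. Among 24 genes of maternal RNA decay, 16 were at 5 FPKM or more in PBS oocytes, with a median of 87.1% left at the 2-cell stage. Besides Btg4, the highest was Dcp1a, an activator of decapping, with 399 FPKM in PBS oocytes and 76.9 FPKM in PBS 2-cell embryos.

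Other listed genes followed other courses. Zfp352 and Zscan4d, transcribed in the 2-cell embryo, had 448 and 295 FPKM in PBS 2-cell embryos, and 0 and 0.446 FPKM in PBS oocytes. Of the 10 genes in that list, 4 were at 5 FPKM or more in PBS oocytes. They were Tcstv1 at 61.6 FPKM, Dppa2 at 32.9 FPKM, Sp110 at 25.04 FPKM and Tcstv3 at 21.5 FPKM, named after their values were seen. The morula markers Krt18, a keratin, and Klf5, a transcription factor, had 91.7 and 64.6 FPKM in PBS morulae, the highest of the 10 in that list. Not all 10 were high there. Eomes had 0.124 FPKM and Sox2 was at 0 in PBS morulae, and Gata3 had 11.9 FPKM, against 19.6 FPKM in PBS oocytes. Of 21 genes in a list of other long noncoding RNAs, 2 were at 5 FPKM or more in PBS oocytes. D6Ertd527e, which the annotation classes as protein coding, had 650 FPKM in PBS 2-cell embryos and 2166 FPKM in PBS oocytes. Tug1 was at 151% of its PBS oocyte level at the 2-cell stage, with 93.7% of its 2-cell level left in PBS morulae. Of the 6 sperm markers listed, none reached 5 FPKM in any PBS group, with Prm2 and Odf1 highest in PBS oocytes at 0.143 and 0.0859 FPKM. Inha, after Cyp19a1 the highest cumulus and granulosa cell marker, had 0.474 FPKM in PBS oocytes.

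The design also asks whether VCD changed these RNAs within a stage, which the choice of members did not use. In MII oocytes 0 of the 3 passed limma's test at a Benjamini-Hochberg adjusted p below 0.05 over all genes, where 0.0115% of 8715 genes did. AA545190 averaged 207 ± 29.2 FPKM in VCD oocytes (SD, n = 5) and 197 ± 10.53 in PBS oocytes (n = 4), a log2 difference of 0.06 (SE 0.10, limma adjusted p = 0.999). A730082K24Rik averaged 23.6 ± 3.79 FPKM in VCD oocytes and 22.3 ± 0.755 in PBS oocytes (0.06, SE 0.11, limma adjusted p = 0.999). C86187 averaged 748 ± 61.8 FPKM in VCD oocytes and 790 ± 36.5 in PBS oocytes (−0.08, SE 0.07, limma adjusted p = 0.999). The 95% intervals ran from −0.16 to 0.28, from −0.18 to 0.31 and from −0.24 to 0.08 on the log2(FPKM + 1) scale. Two-sided exact permutation tests gave p = 0.595, 0.563 and 0.270 in the same order, where the smallest possible value is 0.00794. VCD and PBS libraries overlapped for all 3, while 1.04% of the genes tested had groups that did not overlap.

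In 2-cell embryos 0 of the 3 passed either, where 0% of 11369 genes did by limma, 391 had an unadjusted p below 0.05 and limma-voom on recovered reads called 0. AA545190 averaged 522 ± 53.9 FPKM with VCD and 590 ± 32.1 with PBS (SD, n = 4 each), a log2 difference of −0.18 (SE 0.11, limma adjusted p = 0.999). A730082K24Rik averaged 391 ± 72.3 FPKM with VCD and 405 ± 60.1 with PBS (−0.06, SE 0.16, limma adjusted p = 0.999). C86187 averaged 729 ± 45.6 FPKM with VCD and 654 ± 72.9 with PBS (0.16, SE 0.11, limma adjusted p = 0.999). The 95% intervals ran from −0.42 to 0.06, from −0.41 to 0.29 and from −0.09 to 0.41, so changes of 2-fold lay outside them. Exact permutation tests, two-sided, gave p = 0.0857 for AA545190, 0.743 for A730082K24Rik and 0.143 for C86187, where the smallest possible value is 0.0286. Groups overlapped for all 3, while 2.16% of the genes tested had groups that did not overlap.

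**Figure D5:**
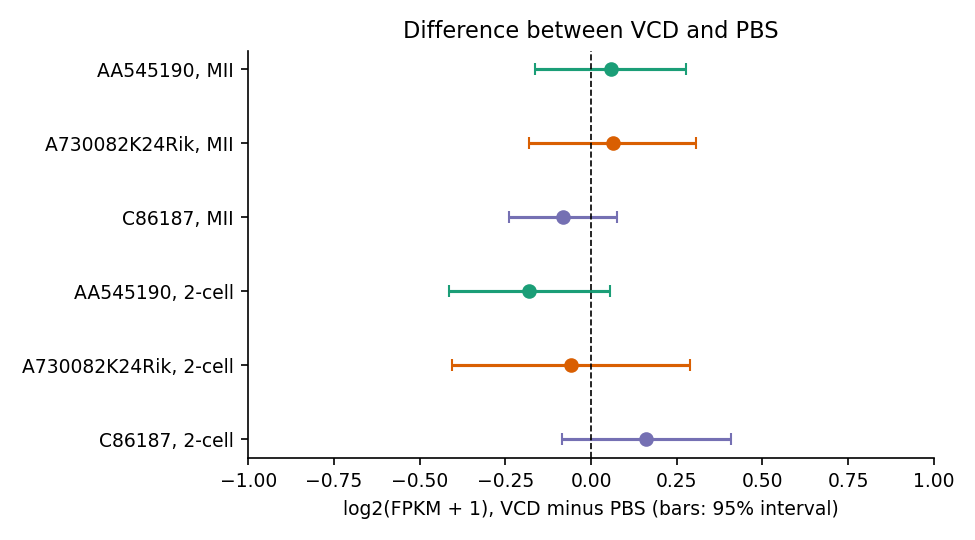
Difference between VCD and PBS in log2(FPKM + 1) for each RNA in oocytes (upper 3) and 2-cell embryos (lower 3), with limma's 95% interval as bars. All 6 intervals contain 0, and the largest difference, −0.18, belongs to AA545190 at the 2-cell stage.

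In morulae none of the 3 reached 1 FPKM in 4 libraries, so 0 of 3 were tested, where 0.01% of 9959 genes passed. The group means were 0.471, 0.0389 and 0.546 FPKM for AA545190, A730082K24Rik and C86187 with VCD, against 0.0843, 0.0226 and 0.330 FPKM with PBS. Two-sided exact permutation tests of log2(FPKM + 1) gave p = 0.429, 0.486 and 0.286 in that order. The groups overlapped for each, while 2.04% of the genes tested had groups that did not overlap. With the few reads of A730082K24Rik a difference between the agents was not detectable at this depth.

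The maternal coding genes gave 0 calls of 24 tested between VCD and PBS in oocytes and 0 of 24 in 2-cell embryos, with medians of −0.06 and −0.00053 on the log2 scale, against 0.01 over all genes in each stage. The maternal RNA decay genes gave 0 calls of 20 in oocytes and 0 of 24 in 2-cell embryos, with medians of −0.02 and 0.06.

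Within a stage no correlation between the 3 RNAs passed after adjustment. Over 9 oocyte libraries Pearson's r was −0.35 for AA545190 with A730082K24Rik (permutation p = 0.365), −0.54 for AA545190 with C86187 (permutation p = 0.137) and 0.03 for A730082K24Rik with C86187 (permutation p = 0.937). Spearman's rho was −0.15, −0.33 and −0.02 (permutation p = 0.708, 0.385 and 0.982). Over 8 2-cell libraries r was −0.53, −0.19 and −0.50 in the same order (permutation p = 0.183, 0.660 and 0.208), and rho −0.40, −0.45 and −0.43 (permutation p = 0.327, 0.267 and 0.299). Adjusted over the 6 relations, the smallest p was 0.415 for r and 0.578 for rho. Without the 2 libraries farthest from the median, r was −0.25, −0.04 and 0.12 in oocytes and −0.13, 0.05 and −0.27 in 2-cell embryos. On deviations from the mean of each agent, AA545190 with A730082K24Rik over the 8 2-cell libraries had r = −0.83 (permutation p = 0.0146, adjusted p = 0.0875) and rho = −0.71 (permutation p = 0.0576, adjusted p = 0.346). That r was the farthest from 0 over the 6 relations and the settings tried. Deviations within an agent sum to 0, so permuting them over all 8 libraries gives only an approximate p.

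The nearest annotated genes were at lower levels than the 3 RNAs in 2-cell embryos. Gm45020, a lincRNA on the other strand, lies 152 bases before the start of A730082K24Rik and averaged 0.533 FPKM in VCD and 0.838 FPKM in PBS 2-cell embryos, against 391 and 405 FPKM for A730082K24Rik itself. It was listed at 0 in all morula libraries. Gm34225, on its other side, averaged 0.613 and 0.749 FPKM in VCD and PBS 2-cell embryos, and 0 and 0.0148 FPKM in VCD and PBS morulae. Beside AA545190, Gm35822 was listed at 0 in all 8 2-cell libraries and averaged 0.134 and 0.0236 FPKM in VCD and PBS morulae. Ndufa4, a mitochondrial respiratory chain gene 920653 bases away, averaged 9.77 and 11.4 FPKM in VCD and PBS 2-cell embryos and 22.3 and 21.4 FPKM in VCD and PBS morulae. Beside C86187, Gm9999 averaged 3.42 and 3.56 FPKM in VCD and PBS 2-cell embryos and was listed at 0 in all morula libraries. The processed pseudogene Gm19248, 353 bases past its end, averaged 8.15 and 9.44 FPKM in VCD and PBS 2-cell embryos and 6.79 and 4.25 FPKM in VCD and PBS morulae.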

How the data were processed

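The authors deposited FPKM values in 2 tables, 1 for oocytes (25158 genes) and 1 for embryos (34228 genes). The submitters' processing notes name TopHat2 2.0.12, Bowtie2 2.2.3 and the chicken build galGal4, although all gene identifiers are mouse Ensembl ones. Neither the counting tool nor the annotation is stated. Multiplied by GENCODE M21 exon lengths, 90.6% to 93.4% of values under 200 reads were whole within 0.01 in each library, and the recovered reads served for depth, morula counts and the limma-voom alternative.

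Within each stage, VCD and PBS libraries were compared by limma 3.58.1 (R 4.3.3) with a variance trend on log2(FPKM + 1), for genes that reached 1 FPKM in at least 4 libraries, with Benjamini-Hochberg adjustment over all genes. That scale understates changes of low genes. No test crossed the tables. The procedure was tested on simulated data. Alternatives were a pseudocount of 0.1, no filter, upper-quartile scaling, each library left out, a replicate block, limma-voom and, for stages, group medians. Python 3.11.15 with scipy 1.17.1 and pandas 2.3.3 gave permutation tests and sequence searches.

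The RNAs, gene lists and thresholds were chosen with earlier results of these data known. Named are the 3 RNAs, 5 nearest courses each, the 2 highest genes per list, the 5 highest long noncoding RNAs, and overlapping and neighbouring genes; other names were added after their values were seen. Long noncoding RNAs are all genes in the long noncoding RNA set of GENCODE M21, with biotypes such as lincRNA, antisense and TEC. Some carry the names of protein-coding genes, such as Cct6a, at 271 FPKM in PBS morulae. They were not removed, so the counts, shares and ranks of long noncoding RNAs include them. The 3′ ends of the transcripts are not reported here.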

Additional observations from a re-analysis of the deposited data

Results flagged for a closer look

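A730082K24Rik in VCD morulae was the only 1 of the 18 sets of libraries (3 RNAs in 6 groups) in which 1 library stood apart from the others by Dixon's ratio. Replicate 2 was listed at 0 FPKM, against 0.0483, 0.0545 and 0.0530 FPKM in the other 3 (ratio 0.886, critical value 0.829 for 4 libraries). Each of those 3 values came from 2 recovered reads and the value of 0 from none. The critical value is meant to flag about 1 in 20 sets of continuous values, a rate that does not carry over to counts of 0 and 2 reads.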

How the results depend on the processing

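In oocytes and 2-cell embryos 0 of the 3 RNAs passed under every alternative run, the replicate block included, and 0 of 3 in morulae without a filter on low values. Over all alternatives in both stages, the smallest limma adjusted p was 0.784 (AA545190 at the 2-cell stage), whose log2 difference there ran from −0.24 to −0.13. Of 72 values for the 3 RNAs that an alternative changed at all, 67 kept their direction and 5 turned, none of them past the threshold; 15 others equalled the main value. In oocytes AA545190 turned to −0.00011 with the replicate block and without VCD replicate 5, and A730082K24Rik to −0.0032 without VCD replicate 1. No PBS oocyte library is numbered 5, so the block gave the same estimates as leaving VCD replicate 5 out. The counts above hold both. At the 2-cell stage A730082K24Rik turned to 0.03 without PBS replicate 4 and to 0.051 without VCD replicate 4. With single libraries left out in oocytes, AA545190 ran from −0.00011 to 0.12 and A730082K24Rik from −0.0032 to 0.12, and A730082K24Rik at the 2-cell stage from −0.13 to 0.051. C86187 ranged from −0.12 to −0.04 in oocytes and from 0.08 to 0.21 in 2-cell embryos.

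Counts over all genes rested on 1 gene in a stage, Gm24984 in oocytes and Gm25332 in morulae, named here after their values were seen. In oocytes 1 became 0 with a pseudocount of 0.1, no filter, the replicate block or limma-voom, and stayed at 1 without any single library. In 2-cell embryos 0 became 1 with the replicate block and without VCD replicate 3, a range of 0 to 1 over libraries left out. In morulae 1 became 0 with limma-voom and without any one of the 4 VCD replicates, a range of 0 to 1. The cause was not tested. Same-numbered libraries correlated in their deviations by −0.33 to −0.11 in oocytes, −0.15 to 0.16 in 2-cell embryos and −0.05 to 0.38 in morulae. Different-numbered libraries correlated by −0.08 to 0.21, −0.16 to 0.16 and −0.29 to 0.26 in the same order. With so few libraries these values cannot decide whether the numbers pair the samples, so the block was run as an alternative only.

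Stage levels in PBS moved with scaling and with the agent. The 2-cell level as a percentage of the oocyte level was 225 (AA545190), 1366 (A730082K24Rik) and 62.2 (C86187) with upper-quartile scaling, and 253 and 97.5 for AA545190 and C86187 in VCD groups. The morula level of AA545190 was 0.0903% of its 2-cell level in VCD groups. There, in a check added after the results were seen, leaving out libraries gave 0.0348% to 0.120% for AA545190, 0.00864% to 0.0133% for A730082K24Rik and 0.0604% to 0.0854% for C86187. Leaving out PBS libraries gave 293% to 306%, 1692% to 1905% and 79.8% to 87.1% for AA545190, A730082K24Rik and C86187 at the 2-cell stage, and 0.00785% to 0.0191%, 0.00199% to 0.00745% and 0.0437% to 0.0637% in morulae. The lowest of these came without PBS morula replicate 2 for AA545190 and without replicate 3 for A730082K24Rik. For AA545190 with C86187 at the 2-cell stage Pearson's r turned to 0.050 without the 2 libraries farthest from the median and to 0.30 on deviations from the mean of each agent, with permutation p-values of 0.944 and 0.476. On those deviations AA545190 with A730082K24Rik moved to −0.83 at the 2-cell stage (permutation p = 0.0146, adjusted p = 0.0875), against −0.53 (permutation p = 0.183) on the values themselves. Permutation p-values on the deviations are approximate. Depth limits the morula values, where A730082K24Rik rests on 10 reads in 8 libraries.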
